A study of Homo sapiens with 64 samples.

Results

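The genes described here make, crosslink, bind or cut the extracellular matrix: fibrillar and network collagens, laminins, adhesive glycoproteins, lysyl oxidases, hyaluronan synthases, proteoglycans, matrix metalloproteinases and their inhibitors. They were taken by name, as 48 genes on a list drawn up with earlier results of these data known. The shares called below are therefore not independent of that choice. Each gene was read from 1 Affymetrix probe set among those annotated to it alone. It was the one with the highest mean over the 64 arrays. Of the 48 listed genes 46 were measured, among 18132 genes measured in all; COL17A1 and LAMA3 were not analysed here. The cells were BEAS-2B, a transformed line derived from human bronchial epithelium, grown with fetal calf serum and left overnight without serum before treatment. They received nothing (untreated), 100 nM budesonide, an inhaled glucocorticoid, 10 nM formoterol, a long-acting beta-2 adrenoceptor agonist, or both agents together (the combination). RNA was taken after 1, 2, 6 or 18 h, so there were 16 groups with 4 arrays each. Every group shares the cell line and the serum-free night, and nothing here compares BEAS-2B with primary airway cells. Values are log2 expression levels, a difference of 1 is a 2-fold change, and levels of different genes are not compared because probe sets differ in response.

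Collagens form the fibrils and sheets of the matrix, laminins and type IV collagen build the basement membrane under the airway epithelium, and lysyl oxidases crosslink collagen and elastin. Hyaluronan is a large sugar polymer made at the cell surface, while metalloproteinases of the MMP and ADAMTS families cut matrix proteins and TIMPs block them. Glucocorticoids act through a nuclear receptor that raises or lowers transcription; beta-2 agonists act through cyclic AMP. Deposition of matrix beneath the epithelium is part of the airway remodelling seen in asthma.

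Array medians lay between 4.87 and 4.95, the median over the whole table was 4.90 and the lower quartile 3.02; a group mean below the lower quartile could not be told from background. Of 10 measured epithelial markers 4 reached that median in some group; the keratin genes KRT8 and KRT18 were among them, and EPCAM and ESRP1 were below the lower quartile in every group. Of 12 fibroblast or mesenchymal markers 9 reached the median, against 3 of 9 leukocyte and 1 of 8 endothelial markers. At 18 h the mean level of the mesenchymal markers was 6.74 to 6.91 on untreated arrays, 6.70 to 6.86 with budesonide and 6.70 to 6.82 with the combination. That mean hides changes both ways. Of these 12 markers 2 were called higher and 3 lower with budesonide, at an adjusted p under 0.05, beside 8.56% and 9.78% of all genes. With the combination 2 were higher and 3 lower, beside 10.3% and 10.7%. KRT8 and KRT18 differed by -1.15 and -0.86 with budesonide at 18 h. Of the 10 epithelial markers 1 was called higher and 3 lower there, at an adjusted p under 0.05, beside 8.56% and 9.78% of all genes. Their median difference was 0.007. With the combination at 18 h 2 were higher and 3 lower, beside 10.3% and 10.7%. The mean level of the epithelial markers was 5.07 to 5.23 on untreated arrays and lower, 4.98 to 5.01 and 4.91 to 5.01, in those treated groups; the part of cell state in the results was not tested. In each group 1 array had the widest gap between the 3' and 5' probe sets of beta-actin, a sign of RNA quality: replicate 1 at 1, 6 and 18 h and replicate 3 at 2 h, in every treatment alike. The labels call the replicates independent determinations but name no separate passage or day, so the p-values cover only the spread among these samples, which may be technical.

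Budesonide left few matrix genes changed in the early hours and lowered many of them by 18 h. A gene was called when its limma p-value, adjusted by Benjamini-Hochberg over all 18132 genes, was under 0.05. With budesonide, 3 of 46 matrix genes were called at 1 h (2 higher, 1 lower), beside 0.998% of all genes (0.667% higher, 0.331% lower). At 2 h there were 4 (2 higher, 2 lower), beside 3.94% (1.69% and 2.26%). At 6 h there were 15 (4 higher, 11 lower), beside 14.2% (6.12% and 8.12%). At 18 h there were 23 (2 higher, 21 lower), beside 18.3% of all genes (8.56% and 9.78%). A fit with a term for each time's replicate number called 6 at 2 h, beside 7.61% of all genes, and 30 at 18 h, beside 27.2%. The median difference of the 46 genes at 18 h was -0.28, that of all genes 0.03. All 11 genes called lower at 6 h were also called lower at 18 h. How many of all genes did so was not counted, so this is not shown to be particular to the matrix genes.

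**Figure D1:**
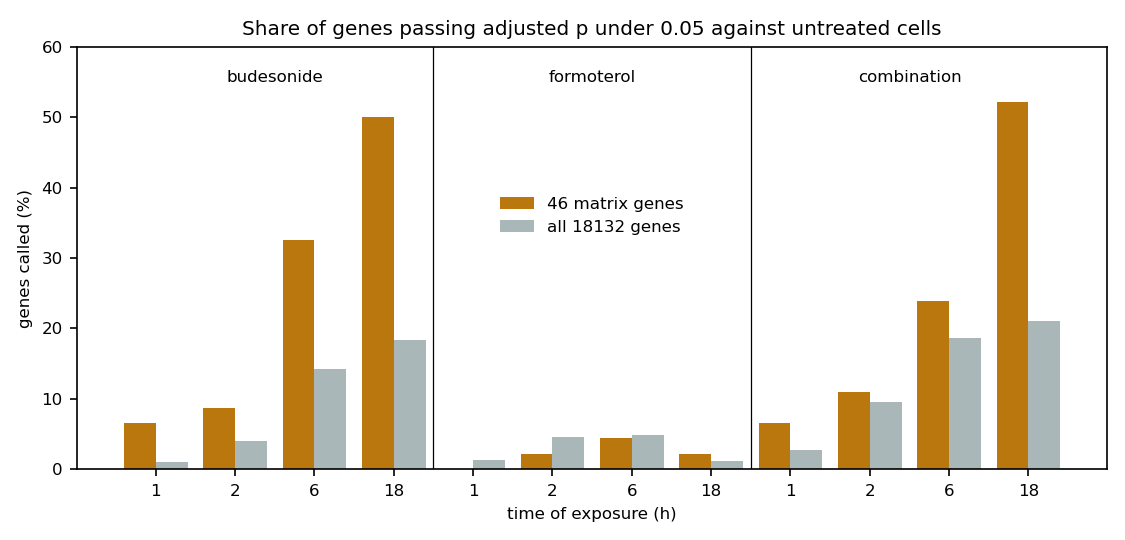
Percent of genes with adjusted p under 0.05 against untreated cells of the same time (y axis) by treatment and time in hours (x axis), for the 46 matrix genes and for all 18132 genes. The list of matrix genes was drawn up with earlier results of these data known. The matrix genes reach 50% with budesonide and 52.2% with the combination at 18 h, beside 18.3% and 21% of all genes. With formoterol they stay at or under 4.35%. Of all genes formoterol called 1.34%, 4.6%, 4.81% and 1.11% at 1, 2, 6 and 18 h.

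The combination gave a like course against untreated cells. It called 3 matrix genes at 1 h, all higher, beside 2.76% of all genes (1.63% higher, 1.13% lower). At 2 h there were 5 (3 higher, 2 lower), beside 9.49% (3.84% and 5.65%), and at 6 h 11 (6 higher, 5 lower), beside 18.6% (8.61% and 9.95%). At 18 h it called 24 (4 higher, 20 lower), beside 21% of all genes (10.3% and 10.7%). The median difference was -0.22 over the matrix genes and 0.03 over all genes. With the term for replicate number 7 were called at 2 h, beside 15.4% of all genes, and 26 at 18 h, beside 29.7%. Without that term, lower calls with budesonide and with the combination at 18 h shared 19 genes. Both comparisons use the same untreated arrays, and the like share of all genes was not counted. At 18 h the arrays of treated and untreated cells did not overlap for 22 of the 46 genes with budesonide, beside 20.4% of all genes, for 20 with the combination, beside 22.8%, and for 4 with formoterol, beside 4.48%. Without the array of the widest beta-actin gap in each group, 21 matrix genes were called with budesonide at 18 h and 21 with the combination. The share of all genes called in that fit was not counted.

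Formoterol alone called few matrix genes, and few of all genes, in the fit without a term for replicate number. The low counts are therefore not shown to be particular to the matrix genes. Formoterol called 0 at 1 h, beside 1.34% of all genes, with 3 at an unadjusted p under 0.05. It called 1 at 2 h, beside 4.6%, 2 at 6 h, beside 4.81%, and 1 at 18 h, beside 1.11%. The share of all genes at the unadjusted p was not counted. With a term for each time's replicate number (the replicate block), used where same-numbered arrays deviated together, 3 were called at 1 h, beside 3.07% of all genes in the same fit: THBS1 at 0.31 (adjusted p = 0.00826), HAS3 at 0.59 (0.0181) and ADAMTS1 at 0.26 (0.0194). At 2 h the block gave 6 calls, beside 9.03% of all genes, adding COL3A1 at 0.55 (0.00113), LAMC1 at -0.25 (0.0339), ADAMTS1 at -0.30 (0.00153), ADAMTS5 at -0.35 (0.00242) and TIMP2 at 0.13 (0.0136). At 6 and 18 h, where some pair's correlation was 0.1 or less, the block gave 10 and 9 calls. Of all genes it then called 10.5% and 5.32%.

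**Figure D2:**
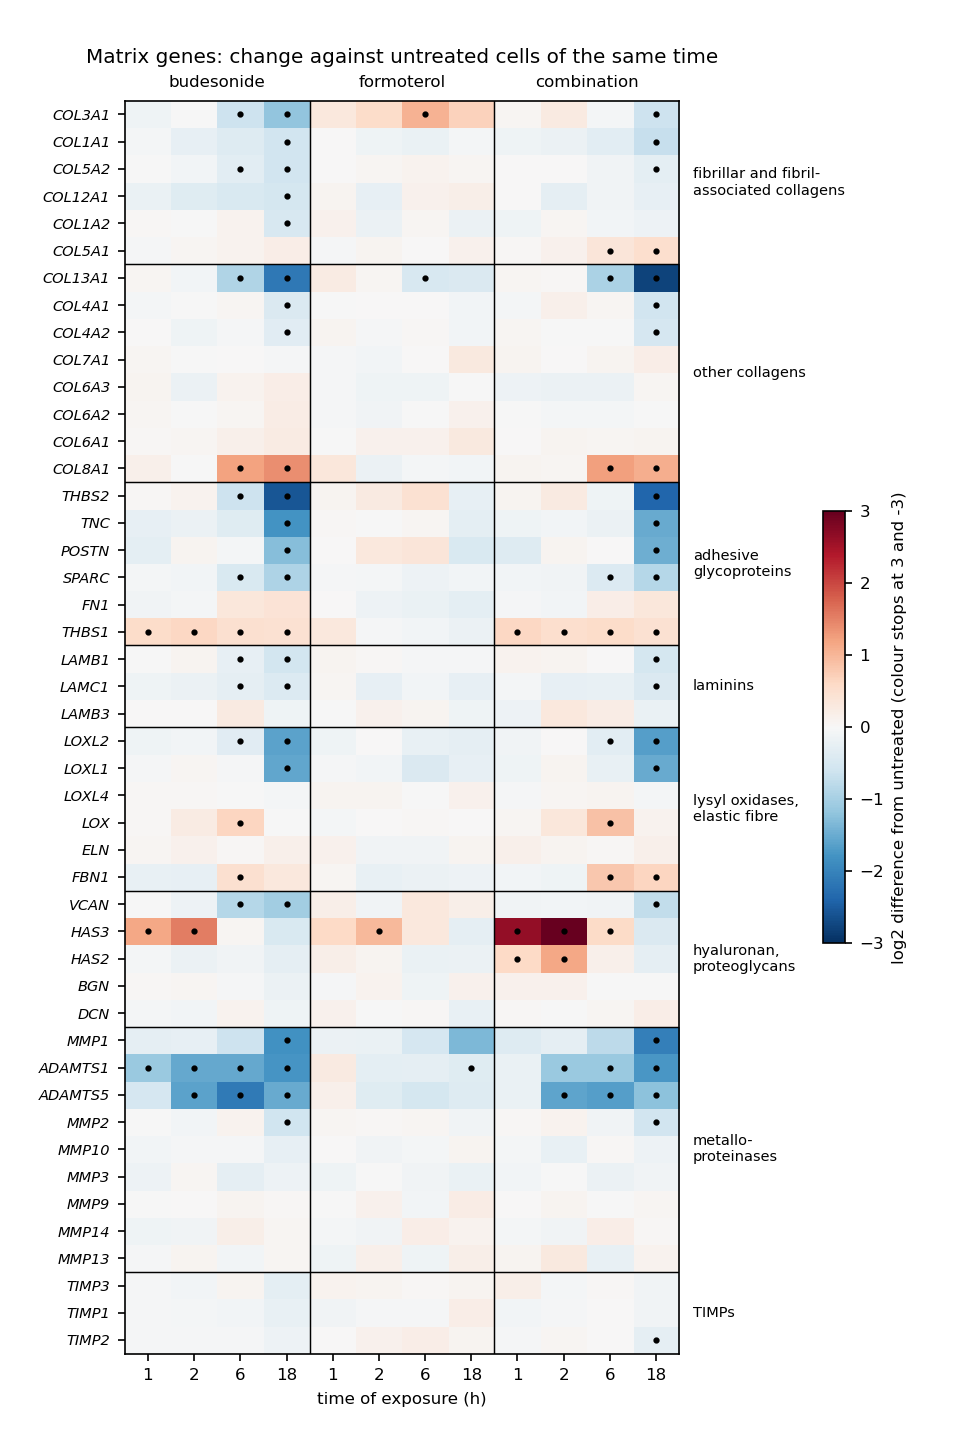
Log2 difference from untreated cells of the same time (colour, blue lower and red higher, stopping at 3 and -3) for 46 matrix genes in rows, grouped by role, and 12 comparisons in columns; a dot marks adjusted p under 0.05. The budesonide and combination columns at 18 h hold most of the dots, 23 and 24, and the early hours show dots for ADAMTS1, ADAMTS5, HAS3, HAS2 and THBS1.

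The fibrillar and fibril-associated collagens, the rope-like proteins of stroma and scar, fell with budesonide at 18 h in 5 of 6 genes. Of all genes 9.78% were called lower there. With the combination at 18 h 3 of the 6 fell and 1 rose, beside 10.7% and 10.3% of all genes. COL3A1, the chain of type III collagen, had levels of 5.39, 5.10, 5.46 and 5.81 on untreated arrays at 18 h. With budesonide they were 4.11, 4.08, 4.58 and 4.28, and with the combination 4.56, 4.64, 5.09 and 5.02. Neither treated group overlapped the untreated one. The falls were 1.18 (SE 0.22, adjusted p = 2.05e-05) and 0.61 (SE 0.22, adjusted p = 0.0344). The fall with the combination is less secure, since leaving out any of untreated replicates 1, 3 and 4 or combination replicates 1 and 2 ended the call (adjusted p from 0.0522 to 0.151).

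COL3A1 was the 1 matrix gene called higher with formoterol at 6 h in the fit without the replicate block. Untreated arrays at 6 h stood at 5.54, 4.68, 5.20 and 5.35, and formoterol arrays at 6.30, 5.73, 6.29 and 6.57, with no overlap. The rise was 1.03 (SE 0.22, adjusted p = 0.000766), whereas budesonide at 6 h lowered the gene by 0.62 (SE 0.22, adjusted p = 0.0429). That fall was not called without any of untreated replicates 1, 3 and 4 or budesonide replicates 2 and 3 (0.0796 to 0.165). The combination at 6 h was at 5.35, 4.71, 5.19 and 5.33, a difference of -0.05 from untreated cells, so the mean with both agents stood between those with each alone. At 18 h formoterol arrays read 6.33, 5.28, 6.52 and 6.43, 3 of them above every untreated array, and the difference of 0.70 was not called (adjusted p = 0.114).

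The other fibrillar collagens moved less. COL1A1, a chain of type I collagen, fell by 0.58 with budesonide and by 0.69 with the combination at 18 h, with no overlap in either case. With budesonide at 2 h its difference of -0.24 was called with the replicate block (adjusted p = 0.0493) and not without it (0.707). COL5A2, a chain of the type V collagen that nucleates fibrils, fell by 0.32 with budesonide at 6 h, by 0.58 with budesonide at 18 h and by 0.30 with the combination at 18 h. COL12A1, which decorates fibrils, and COL1A2, the other chain of type I collagen, fell with budesonide at 18 h by 0.53 (adjusted p = 0.0381) and 0.48 (adjusted p = 0.0255). The COL12A1 call ended without untreated replicate 1 or 2 or budesonide replicate 2 or 4 (0.0691 to 0.259), and the COL1A2 call without untreated replicate 2 or budesonide replicate 3 or 4 (0.107 to 0.119). COL5A1, the partner of COL5A2 in type V collagen, went the other way. It rose by 0.36 at 6 h and 0.51 at 18 h with the combination (adjusted p = 0.00485 and 5.14e-05); the 6 h call ended without combination replicate 4 (0.0562). With budesonide alone at 18 h the COL5A1 difference was 0.21, called with the replicate block (adjusted p = 0.00841) and not without it (0.162).

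In untreated cells 3 fibrillar collagens were called higher at 18 h than at 1 h, and none of the 3 calls was secure. Against 1 h, none of the 46 genes was called at 2 or 6 h, and at 18 h COL1A2, COL5A1 and COL5A2 had risen by 0.68, 0.42 and 0.24. Of all genes 0.0165%, 0.21% and 0.364% were called at 2, 6 and 18 h. The 3 calls (adjusted p = 0.0314, 0.034 and 0.0236) all depend on the arrays chosen: leaving out 1 array left at most 2 of the 3. Leaving out any array but untreated replicate 4 at 18 h ended the COL1A2 call (0.0516 to 0.203). The COL5A1 call ended without replicate 1, 2 or 3 at 1 h or 1, 2 or 4 at 18 h (0.107 to 0.2), and the COL5A2 call without replicate 3 or 4 at 1 h or 1 or 2 at 18 h (0.0887 to 0.203). With the mean of a gene's probe sets the calls of COL1A2, COL5A1 and COL5A2 all ended (adjusted p = 0.835, 0.223 and 0.56). In a fit of only the arrays compared those of COL5A1 and COL5A2 ended (0.0666 and 0.186). The treated groups are compared with untreated cells of the same time.

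Among the other collagens COL13A1 showed the deepest fall of the 46 probe sets used. It encodes a collagen anchored in the plasma membrane at cell adhesions. Its promoter, the 250 bases before the RefSeq start site on the plus strand of GRCh38.p14 at chr10:69801656-69801905, is printed because no other gene of the 46 fell as far; capitals mark TATAAA at -236 and the core TGACG of the cyclic AMP response element at -68. Of 27305 RefSeq promoters of this length, searched on both strands, 11.1% hold TATAAA and 21.7% hold TGACG.
COL13A1: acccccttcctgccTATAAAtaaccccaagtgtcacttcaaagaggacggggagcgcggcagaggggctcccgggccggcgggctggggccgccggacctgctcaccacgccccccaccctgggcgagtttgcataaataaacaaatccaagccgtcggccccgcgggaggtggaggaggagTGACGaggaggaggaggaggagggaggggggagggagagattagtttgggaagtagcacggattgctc
The arrays of untreated cells at 18 h read 7.03, 6.92, 6.81 and 6.76. With budesonide they read 4.77, 4.84, 4.70 and 4.61, and with the combination 3.95, 3.97, 3.76 and 4.78. The treated groups lay far under the untreated one, and combination replicate 4 stood apart from its 3 partners, inside the budesonide range. COL13A1 fell by 2.15 (SE 0.14, adjusted p = 3.44e-19) with budesonide and by 2.77 (SE 0.14, adjusted p = 3.99e-24) with the combination, which is 6.81-fold.

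The fall of COL13A1 had begun by 6 h. It was 0.90 with budesonide and 0.94 with the combination (adjusted p = 1.66e-06 and 3.77e-07). Formoterol alone lowered it by 0.47 at 6 h, with overlapping arrays (adjusted p = 0.042). That call ended without any of untreated replicates 1, 2 and 4 or formoterol replicates 3 and 4 (0.0568 to 0.348). All 4 probe sets of the gene went the same way in these comparisons, with the others between -0.97 and -0.58 for budesonide at 6 h.

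COL8A1, a short-chain collagen of vessel walls and basement membranes, rose instead. Its levels at 18 h were 10.68, 10.18, 10.13 and 9.76 without treatment, 11.90, 11.60, 11.46 and 11.37 with budesonide, and 11.33, 11.54, 11.24 and 10.97 with the combination. Each treated array was above each untreated one. The rise was 1.40 (SE 0.24, adjusted p = 4.1e-06) with budesonide and 1.08 (SE 0.24, adjusted p = 0.000277) with the combination. At 6 h it was already 1.21 and 1.24. The other 2 probe sets of COL8A1 moved less at 6 h, 0.25 and 0.30 with budesonide.

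Type IV collagen, the sheet-forming collagen of basement membranes, is encoded by genes in head-to-head pairs that share the stretch between their start sites. COL4A1 and COL4A2 lie 127 bp apart on chromosome 13 and COL4A4 and COL4A3 lie 419 bp apart on chromosome 2; COL4A3 and COL4A4 are not on the list of 48. Printed for the comparison of the pairs are the 126 bases between COL4A1 and COL4A2, chr13:110307158-110307283, 80.2% G and C, and the 250 bases before COL4A3, chr2:227164374-227164623, 66.4% G and C, both from RefSeq, GRCh38.p14, plus strand. Capitals mark GGGCGG boxes in either direction and CCAAT, which 42.3% and 33% of all promoters hold.
COL4A1-COL4A2: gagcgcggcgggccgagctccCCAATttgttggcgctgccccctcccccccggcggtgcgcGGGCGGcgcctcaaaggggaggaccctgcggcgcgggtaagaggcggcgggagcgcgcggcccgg
COL4A3: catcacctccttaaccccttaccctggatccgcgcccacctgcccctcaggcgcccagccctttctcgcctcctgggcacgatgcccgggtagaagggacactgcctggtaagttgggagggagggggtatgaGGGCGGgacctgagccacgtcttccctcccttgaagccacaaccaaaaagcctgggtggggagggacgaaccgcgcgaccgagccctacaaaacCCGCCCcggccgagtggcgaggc
Untreated COL4A1 arrays at 18 h stood at 9.20, 9.13, 8.98 and 8.97, those with budesonide at 8.63, 8.79, 8.59 and 8.54, and those with the combination at 8.42, 8.56, 8.52 and 8.52. Untreated COL4A2 arrays stood at 10.11, 9.67, 9.62 and 9.56, those with budesonide at 9.52, 9.47, 9.29 and 9.30, and those with the combination at 9.40, 9.24, 9.10 and 9.22. No treated array reached an untreated one for either gene.

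The pair on chromosome 13 fell and the pair on chromosome 2 rose at 18 h. COL4A1 fell by 0.43 (SE 0.10) with budesonide and 0.56 (SE 0.10) with the combination, and COL4A2 by 0.34 (SE 0.11) and 0.50 (SE 0.11). COL4A3 rose by 1.53 (SE 0.20) and 1.91 (SE 0.20), and COL4A4 by 1.51 (SE 0.15) and 1.73 (SE 0.15). Formoterol alone raised COL4A3 by 0.85 and COL4A4 by 0.77 at 6 h (adjusted p = 0.00397 and 0.000273), while COL4A1 and COL4A2 passed no test with it. Averaging all probe sets of each gene ended the budesonide calls of COL4A1 and COL4A2 (adjusted p = 0.266 and 0.251), and the COL4A2 call also ended without untreated replicate 1 or budesonide replicate 3 or 4 (0.0784 to 0.215).

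**Figure D3:**
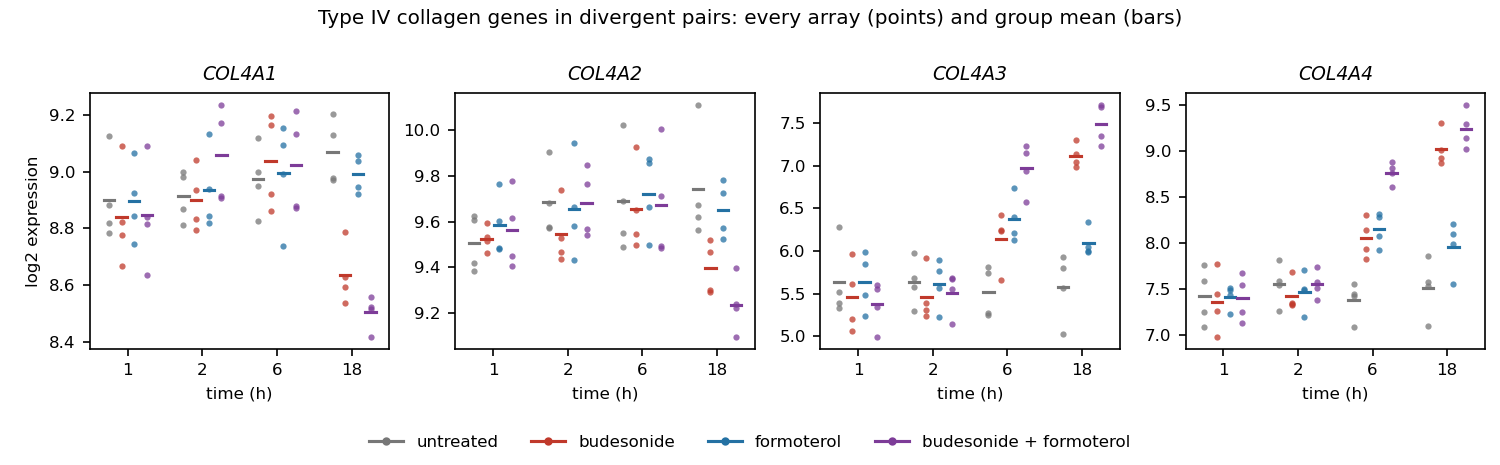
Log2 expression (y axis, scaled for each gene) of 4 type IV collagen genes on every array (points) with group means (bars) by time in hours (x axis) and treatment (colour). At 18 h the budesonide and combination arrays of COL4A1 and COL4A2 lie below all untreated arrays, and those of COL4A3 and COL4A4 lie above them.

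The type VI collagens COL6A1, COL6A2 and COL6A3, which form beaded filaments, and COL7A1, the anchoring fibril collagen, passed the test in no comparison with untreated cells. With the replicate block, COL6A1 was called higher with budesonide at 18 h by 0.24 (adjusted p = 0.000583, and 0.13 without the block).

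The adhesive and matricellular glycoproteins, which tell cells about the matrix around them, fell with budesonide at 18 h in 4 of 6 genes. A further 1 rose, and of all genes 9.78% were called lower and 8.56% higher there. THBS2, thrombospondin 2, a regulator of collagen fibril assembly and of vessel growth, fell most. The 250 bases before its RefSeq start site, minus strand of GRCh38.p14 at chr6:169253847-169254096, are shown for that reason, with capitals at TATAAA from -29 to -24.
THBS2: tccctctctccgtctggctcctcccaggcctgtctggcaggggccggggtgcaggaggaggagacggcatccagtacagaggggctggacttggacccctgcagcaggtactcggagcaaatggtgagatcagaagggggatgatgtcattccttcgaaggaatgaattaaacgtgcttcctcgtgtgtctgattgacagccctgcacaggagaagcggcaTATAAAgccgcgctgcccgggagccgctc
Levels of THBS2 at 18 h were 8.17, 8.59, 8.09 and 8.48 in untreated cells. They were 5.73, 5.90, 5.59 and 5.86 with budesonide and 5.75, 5.90, 6.09 and 6.06 with the combination. Every treated array was far below every untreated one. The falls were 2.56 (SE 0.15, adjusted p = 2.53e-21), or 5.91-fold, and 2.39 (SE 0.15, adjusted p = 5.52e-20).

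The THBS2 fall was partial at 6 h. Budesonide arrays stood at 7.92, 7.53, 7.58 and 7.77 against 8.15, 8.54, 8.41 and 8.14 untreated, a fall of 0.61 (SE 0.15, adjusted p = 0.00249). Combination arrays stood at 8.23, 7.97, 8.21 and 8.35, overlapping the untreated ones, with a difference of -0.12 that was not called. Formoterol arrays stood at 8.93, 8.61, 8.91 and 8.62, all above the untreated ones, with a difference of 0.46 that was not called (adjusted p = 0.0783).

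TNC, tenascin C, a glycoprotein of injured and remodelling tissue, read 8.84, 9.19, 8.96 and 8.67 in untreated cells at 18 h. It read 7.07, 7.34, 7.44 and 6.58 with budesonide and 7.25, 7.52, 7.74 and 7.07 with the combination. The groups did not overlap. The falls were 1.80 (SE 0.23, adjusted p = 4.91e-09) and 1.52 (SE 0.23, adjusted p = 3.28e-07), and TNC passed the test at no earlier time.

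SPARC, a collagen-binding glycoprotein, fell by 0.46 at 6 h and 0.93 at 18 h with budesonide, and by 0.41 and 0.86 with the combination. Its spread was small: untreated arrays at 18 h stood at 12.50, 12.60, 12.62 and 12.49, and budesonide arrays at 11.65, 11.62, 11.69 and 11.55. All 8 SPARC probe sets agreed in direction with budesonide at 6 h. POSTN, periostin, a gene of airway epithelium known from asthma biomarker studies, read 4.63, 5.09, 3.96 and 4.05 in untreated cells at 18 h. With budesonide it read 3.24, 3.01, 3.23 and 3.18 and with the combination 2.98, 2.98, 2.82 and 3.14. Both treated groups were below all untreated arrays, and the combination mean could not be told from background. The falls were 1.27 (SE 0.30, adjusted p = 0.000877) and 1.45 (SE 0.30, adjusted p = 0.000107).

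THBS1, thrombospondin 1, an activator of latent TGF-beta and the close relative of THBS2, rose at every time. With budesonide the rise was 0.56 at 1 h, 0.62 at 2 h, 0.48 at 6 h and 0.47 at 18 h (SE 0.14 each). With the combination it was 0.62, 0.51, 0.55 and 0.46. At 2 h untreated arrays stood at 11.01, 10.64, 10.73 and 10.57 and budesonide arrays at 11.66, 11.29, 11.46 and 11.04, with no overlap. So the 2 thrombospondin genes went opposite ways at 18 h with the same agent. The budesonide call at 1 h (adjusted p = 0.0274) ended without untreated replicate 3 or 4 or budesonide replicate 1 or 2 (0.06 to 0.332). The call at 18 h (0.0128) ended without untreated replicate 3 or 4 or budesonide replicate 3 (0.0577 to 0.0651). With the combination, the call at 1 h ended without untreated replicate 4 (0.0529), that at 2 h without untreated replicate 4 or combination replicate 3 (0.0503 to 0.0581), and that at 18 h without untreated replicate 3 or 4 or combination replicate 1 (0.0551 to 0.0654).

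FN1, fibronectin, the main cell-binding glycoprotein, was called against untreated cells at no time in the fit of all arrays without the replicate block. At 18 h untreated arrays read 12.05, 12.16, 12.27 and 11.70, and budesonide arrays 12.56, 12.49, 12.66 and 12.13. Each budesonide array was above the untreated array of its own number, and the groups overlapped. The difference of 0.42 had an adjusted p of 0.0703, of 1.8e-06 with the replicate block, and of 0.0113 in a fit of only the arrays compared, which also called the difference of 0.33 at 6 h (0.0135). For the combination the difference of 0.34 had adjusted p values of 0.153 and 5.67e-05.

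**Figure D4:**
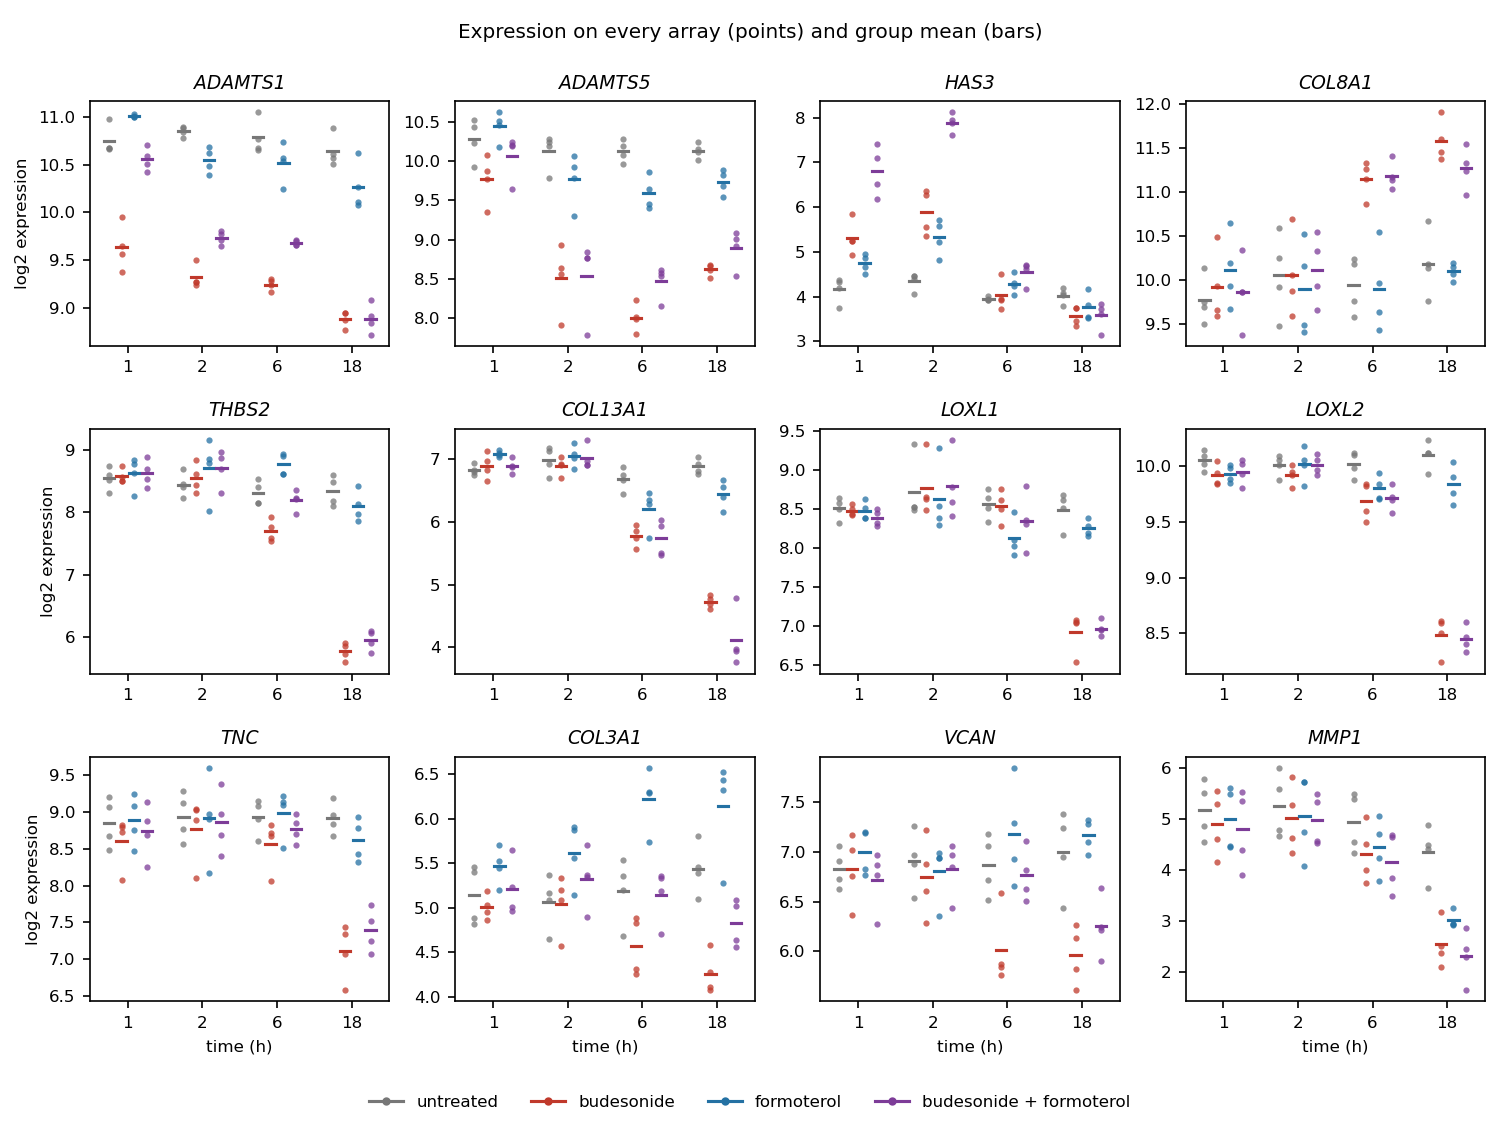
Log2 expression (y axis, scaled for each gene) on every array (points) with the mean of each group of 4 (bars) for 12 matrix genes by time in hours (x axis) and treatment (colour). ADAMTS1 and HAS3 separate at 1 h, whereas THBS2, LOXL1, LOXL2 and TNC separate mainly at 18 h and COL8A1 rises at 6 h.

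Of the laminins, the cross-shaped proteins of basement membranes, LAMB1 and LAMC1 fell and LAMB3 passed no test. With budesonide LAMB1 fell by 0.25 at 6 h and 0.54 at 18 h, and LAMC1 by 0.28 and 0.41. With the combination both fell at 18 h, by 0.52 and 0.43, and neither was called at 6 h. At 2 h with the combination LAMC1 differed by -0.25, called with the replicate block (adjusted p = 0.0201) and not without it (0.111). The 6 h calls are the weaker ones. The LAMB1 call (adjusted p = 0.018) ended without untreated replicate 1 or 4 or budesonide replicate 3 (0.0534 to 0.109), and the LAMC1 call (0.0429) without untreated replicate 1 or 2 or budesonide replicate 2, 3 or 4 (0.0613 to 0.274).

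The lysyl oxidases split. LOXL2, which crosslinks type IV and fibrillar collagen, read 10.11, 10.23, 9.93 and 10.11 in untreated cells at 18 h, 8.60, 8.61, 8.50 and 8.24 with budesonide, and 8.60, 8.46, 8.41 and 8.33 with the combination. Every treated array lay below every untreated one. The falls were 1.61 (SE 0.08, adjusted p = 3.42e-24) and 1.64 (SE 0.08, adjusted p = 1.15e-24), after falls of 0.33 and 0.31 at 6 h.

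LOXL1, needed for elastic fibre upkeep, read 8.68, 8.61, 8.51 and 8.16 in untreated cells at 18 h. It read 7.08, 7.04, 6.53 and 7.05 with budesonide and 7.10, 6.96, 6.87 and 6.95 with the combination. Here too the groups were apart, with falls of 1.57 (SE 0.18, adjusted p = 9.66e-11) and 1.52 (SE 0.18, adjusted p = 1.97e-10). LOXL1 passed the test at no earlier time.

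LOX, the founding member of the family, rose for a time. At 6 h untreated arrays stood at 9.44, 9.50, 9.83 and 10.29, budesonide arrays at 10.31, 10.03, 10.48 and 10.84, and combination arrays at 10.48, 10.36, 10.77 and 10.96. The budesonide arrays overlapped the untreated ones and the combination arrays did not. The rises were 0.65 (SE 0.21, adjusted p = 0.0246) and 0.88 (SE 0.21, adjusted p = 0.000959). At 18 h the differences were -0.01 and 0.11. The budesonide call at 6 h ended without untreated replicate 1 or 2 or budesonide replicate 3 or 4 (0.0619 to 0.144). At 2 h LOX was called only with the replicate block, at 0.25 with budesonide (adjusted p = 0.000709) and 0.35 with the combination (8.35e-07).

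FBN1, fibrillin 1, the scaffold of elastic microfibrils, rose by 0.48 with budesonide at 6 h, and by 0.81 at 6 h and 0.66 at 18 h with the combination. The budesonide call (adjusted p = 0.0212) ended without untreated replicate 2 or 3 or budesonide replicate 1 or 3 (0.0565 to 0.137). At 18 h with budesonide the difference of 0.32 was called with the replicate block (adjusted p = 0.0319) and not without it (0.154). Of its 5 probe sets 1 went the other way with budesonide at 6 h, at -0.45. ELN, elastin, and LOXL4 passed no test.

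Of the hyaluronan synthases HAS3 and HAS2 were called higher in the first hours. HAS3 makes hyaluronan at the plasma membrane. The 250 bases before its start site, plus strand of GRCh38.p14 at chr16:69107290-69107539 in RefSeq, are shown because the probe set used for HAS3 had the largest difference from untreated cells of the 46. Capitals mark a GC box, CCGCCC on this strand, at -223 and the E-box CACGTG at -66, which 42.3% and 6.49% of all promoters hold on either strand.
HAS3: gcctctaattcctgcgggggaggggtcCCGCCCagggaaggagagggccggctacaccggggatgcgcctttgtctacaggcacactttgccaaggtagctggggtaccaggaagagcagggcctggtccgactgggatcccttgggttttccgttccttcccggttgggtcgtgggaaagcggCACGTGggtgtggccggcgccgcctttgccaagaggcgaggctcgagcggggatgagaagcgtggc
At 2 h untreated arrays read 4.40, 4.05, 4.47 and 4.47. Arrays of budesonide read 5.56, 6.35, 6.27 and 5.36, of formoterol 5.21, 5.58, 5.70 and 4.81, and of the combination 7.89, 7.94, 8.12 and 7.61. The agents given alone overlapped each other, both lay above the untreated arrays, and the combination lay above all of them. The rises were 1.54 (SE 0.21, adjusted p = 7.13e-08), 0.98 (SE 0.21, adjusted p = 0.000749) and 3.55 (SE 0.21, adjusted p = 1.19e-21), the last being 11.7-fold.

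HAS3 rose within 1 h and was no longer above untreated cells at 18 h. At 1 h untreated arrays read 4.38, 4.32, 4.19 and 3.75, budesonide arrays 5.25, 5.84, 5.24 and 4.93, and combination arrays 6.52, 7.40, 7.10 and 6.19. These 3 groups were apart, with rises of 1.16 (SE 0.21) and 2.64 (SE 0.21). At 6 h the combination stood at 4.62, 4.70, 4.68 and 4.16 against 3.93, 3.95, 3.92 and 4.02, a rise of 0.58 (adjusted p = 0.0376). That call ended without any 1 of the 4 untreated arrays or of combination replicates 1, 2 and 3 (0.0536 to 0.108). At 18 h budesonide and combination differed from untreated cells by -0.45 and -0.44, called only with the replicate block (adjusted p = 0.0248 each, against 0.14 and 0.135).

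The HAS3 values rest on 1 of its 4 probe sets. The other 3 moved between 0.01 and 0.38 with the combination at 2 h and between -0.11 and 0.22 with budesonide. With the mean of the 4 probe sets the rise with the combination at 2 h was 1.00, and the budesonide call at 1 h and the formoterol call at 2 h ended (adjusted p = 0.369 and 0.363).

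HAS2, a second hyaluronan synthase, rose with the combination; with budesonide and formoterol alone at 2 h it differed by -0.17 and 0.07, neither called. At 2 h untreated arrays read 2.46, 2.56, 2.52 and 2.85, combination arrays 3.49, 3.73, 3.61 and 4.19. There was no overlap, but the untreated level could not be told from background. The rise was 1.16 (SE 0.15, adjusted p = 1.77e-08) at 2 h and 0.60 (SE 0.15, adjusted p = 0.0119) at 1 h. The 1 h call ended without untreated replicate 1 or 4 or combination replicate 4 (0.0524 to 0.0734). All 3 HAS2 probe sets were higher at 2 h, the others by 0.53 and 1.43.

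VCAN, versican, a hyaluronan-binding proteoglycan, fell later. At 18 h untreated arrays stood at 7.24, 7.38, 6.94 and 6.44, budesonide arrays at 6.14, 6.27, 5.82 and 5.61, and combination arrays at 6.22, 6.64, 6.24 and 5.91. Budesonide arrays did not overlap the untreated ones, while 1 combination array did. The falls were 1.04 (SE 0.21, adjusted p = 0.000133) and 0.75 (SE 0.21, adjusted p = 0.00644), and with budesonide at 6 h the fall was 0.85 (SE 0.21, adjusted p = 0.00239). The small proteoglycans BGN and DCN passed no test, and DCN was below the lower quartile in every group.

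Without the replicate block, every metalloproteinase called against untreated cells was lower. ADAMTS1 and ADAMTS5 cleave versican and related proteoglycans. ADAMTS1 was the 1 gene of the 46 called lower with budesonide at 1 h: there untreated arrays read 10.66, 10.68, 10.98 and 10.67 and budesonide arrays 9.56, 9.37, 9.95 and 9.65. Every budesonide array was below every untreated one. The fall was 1.12 (SE 0.10, adjusted p = 1.3e-13) at 1 h, and it was 1.53, 1.55 and 1.76 at 2, 6 and 18 h.

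With the combination ADAMTS1 was not called at 1 h. The arrays read 10.51, 10.42, 10.59 and 10.70, overlapping the untreated ones, and the difference was -0.19 (adjusted p = 0.549). It fell by 1.11 at both 2 and 6 h, and at 18 h by 1.76, as far as with budesonide alone. At 18 h untreated arrays stood at 10.50, 10.57, 10.88 and 10.61, budesonide arrays at 8.94, 8.87, 8.95 and 8.77, and combination arrays at 8.84, 8.91, 9.07 and 8.72. The treated groups overlapped each other and stayed far under the untreated one. Formoterol alone lowered the gene at 18 h by 0.37 (adjusted p = 0.0375), a call that ended without any of untreated replicates 2, 3 and 4 or formoterol replicates 2 and 4 (0.0586 to 0.253).

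ADAMTS5 was called lower from 2 h on. At 1 h the difference with budesonide was -0.51, which was not called (adjusted p = 0.335). At 2 h the fall was 1.61 with budesonide and 1.58 with the combination. At 6 h untreated arrays read 10.19, 9.96, 10.08 and 10.28, budesonide arrays 8.23, 7.80, 7.99 and 8.02, and combination arrays 8.54, 8.15, 8.61 and 8.57. Every treated array was below every untreated one. The falls were 2.12 (SE 0.18, adjusted p = 2.06e-15), or 4.34-fold, and 1.66 (SE 0.18, adjusted p = 9.12e-12). At 18 h they were 1.51 and 1.24.

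MMP1, the interstitial collagenase, fell at 18 h. Untreated arrays stood at 3.63, 4.87, 4.48 and 4.40, budesonide arrays at 2.37, 2.51, 3.17 and 2.10, and combination arrays at 1.64, 2.45, 2.85 and 2.28. No treated array reached an untreated one, and both treated means could not be told from background. The falls were 1.81 (SE 0.39, adjusted p = 0.000216) and 2.04 (SE 0.39, adjusted p = 2.54e-05). Formoterol arrays at 18 h stood at 2.94, 2.94, 3.24 and 2.91, also below every untreated array, and the difference of -1.34 was not called (adjusted p = 0.0689), although it was in a fit of only the arrays compared (0.00979). The formoterol mean could not be told from background either.

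MMP2, a gelatinase with all group means below the median of all values, fell by 0.61 and 0.57 at 18 h, with overlapping arrays (adjusted p = 0.0269 and 0.0372). The budesonide call ended without any of untreated replicates 1, 2 and 3 or budesonide replicates 2 and 3 (0.0527 to 0.112), and the combination call without the same untreated arrays or combination replicates 3 and 4 (0.0917 to 0.139). MMP3, MMP9, MMP10, MMP13 and MMP14 passed no test; of these MMP14, the membrane-bound activator of MMP2, was the 1 that reached the median in a group. Of the inhibitors TIMP2 fell by 0.28 with the combination at 18 h (adjusted p = 0.00576). With budesonide at 18 h TIMP1 and TIMP2 differed by -0.22 and -0.16, called with the replicate block (adjusted p = 0.00303 and 0.000543) and not without it (0.0564 and 0.165). TIMP3 passed no test.

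Formoterol added to budesonide raised a few matrix genes above budesonide alone. Between the combination and budesonide 3 of 46 genes differed at 1 h, beside 1.47% of all genes (1.2% higher, 0.276% lower), and 3 at 2 h, beside 4.38% (2.83% and 1.54%). There were 5 at 6 h, beside 6.72% (3.91% and 2.81%), and 2 at 18 h, beside 0.651% (0.303% and 0.347%). At 1 and 2 h they were HAS2, HAS3 and ADAMTS1, all higher with the combination: HAS3 by 1.49 and 2.01, HAS2 by 0.66 and 1.33, and ADAMTS1 by 0.92 and 0.41. At 6 h COL5A2, LAMB1, ADAMTS1, THBS2 and VCAN were higher, by 0.22, 0.27, 0.44, 0.49 and 0.75. At 18 h COL5A2 was higher by 0.28 (adjusted p = 0.00171) and COL13A1 lower by 0.61 (adjusted p = 0.0179).

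Several of these calls rest on few arrays. The COL13A1 call at 18 h ended without budesonide replicate 1 or 2 or combination replicate 1, 2 or 3 (0.06 to 0.186), and the HAS2 call at 1 h without budesonide replicate 1 or combination replicate 4 (0.053 to 0.122). At 6 h the THBS2 call ended without budesonide replicates 2, 3 or 4 or combination replicates 1, 3 or 4 (0.0573 to 0.14), the VCAN call without budesonide replicates 2, 3 or 4 or combination replicate 1 (0.0634 to 0.0997), and the LAMB1 call without budesonide replicate 3 or combination replicate 1 or 4 (0.0581 to 0.116). With the replicate block the counts at 6 and 18 h were 12 and 4, beside 14.3% and 3.67% of all genes, adding at 6 h COL3A1 at 0.57 (adjusted p = 0.000463), COL5A1 at 0.26 (0.00249), COL12A1 at 0.36 (0.0484), LOX at 0.23 (0.00141), FBN1 at 0.33 (0.0443), HAS3 at 0.52 (0.0165) and ADAMTS5 at 0.46 (4.47e-05). At 18 h it added COL3A1 at 0.57 (0.00243) and COL5A1 at 0.30 (0.00143).

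**Figure D5:**
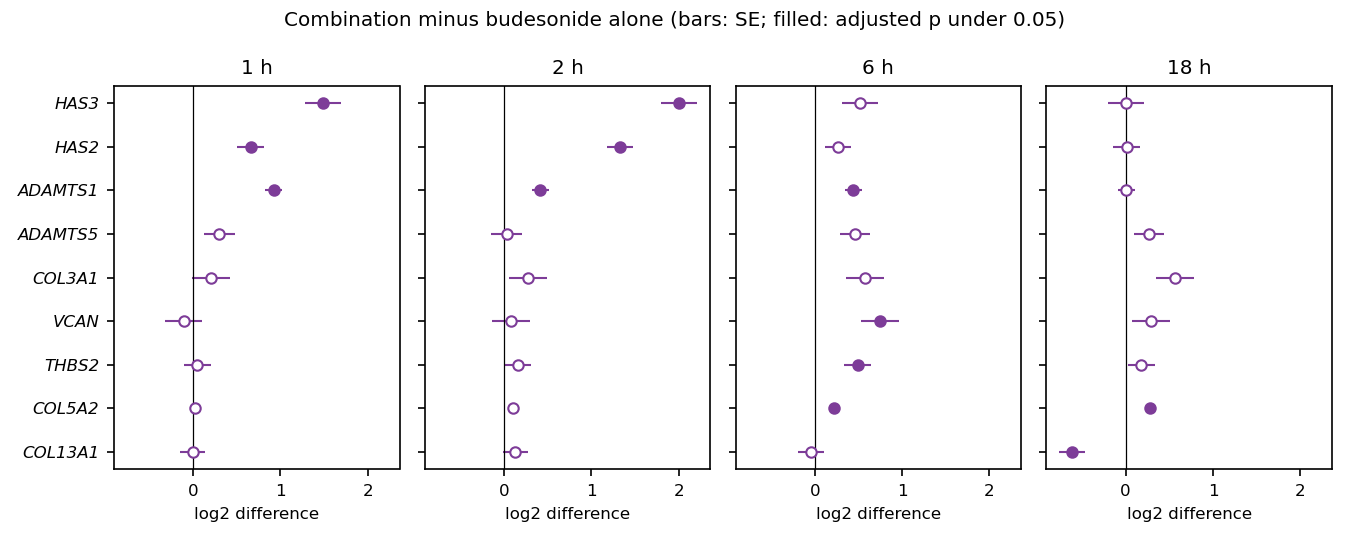
Log2 difference of the combination from budesonide alone (x axis) for 9 matrix genes (rows) at 1, 2, 6 and 18 h (panels); bars are the standard error and filled points have adjusted p under 0.05. HAS3 reaches 2.01 at 2 h and lies near 0 at 18 h, and ADAMTS1 goes from 0.92 at 1 h to near 0 at 18 h.

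Departure from additivity on the log2 scale was the combination minus both single effects. It was called for 1 of 46 genes at 1 h, beside 0.171% of all genes, and 2 at 2 h, beside 0.59%. There were 2 at 6 h, beside 0.722%, and 0 at 18 h, beside 0.276%. At 18 h 9 had an unadjusted p under 0.05, and the share of all genes at that p was not counted. ADAMTS1 was called at 1, 2 and 6 h, at 0.66, 0.72 and 0.71 (SE 0.14 each). So its level with both agents was above what the sum of the single effects gives. HAS2 was called at 2 h at 1.26 (SE 0.22), but its untreated, budesonide and formoterol means could not be told from background, so this size is uncertain. With the replicate block HAS3 was called as well at 2 h, at 1.03 (adjusted p = 0.00331, and 0.12 without the block), making 3 calls beside 1.26% of all genes. ADAMTS5 was called at 6 h at 0.99 (SE 0.25, adjusted p = 0.028). The ADAMTS1 call at 1 h ended without untreated replicate 3 or budesonide replicate 2 (0.074 to 0.0845). The ADAMTS5 call ended without any of 8 of the 16 arrays of its time (0.0525 to 0.082): untreated replicates 1 and 4, budesonide replicate 2, formoterol replicates 2 and 4, and combination replicates 1, 3 and 4. With the mean of its 2 probe sets ADAMTS1 passed at none of the 3 times (0.0671 to 0.758).

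Against formoterol alone the combination differed in 2 of 46 genes at 1 h, beside 1.27% of all genes, 5 at 2 h, beside 4.15%, 12 at 6 h, beside 13.4%, and 23 at 18 h, beside 17.6%. At 18 h 18 were lower and 5 higher, beside 8.66% and 8.95% of all genes, led by COL13A1 at -2.33 and THBS2 at -2.14. COL3A1, which formoterol had raised, was lower by 1.08 at 6 h and 1.31 at 18 h when budesonide was present (adjusted p = 0.000121 and 2.75e-06). FN1 was higher by 0.64 at 18 h (adjusted p = 0.00273). At 1 h the replicate block gave 4 calls, beside 2.09% of all genes, adding THBS1 at 0.31 (adjusted p = 0.0114) and ADAMTS5 at -0.37 (0.0037), and at 2 h it added LOX at 0.34 (3.39e-06). The FN1 call ended without the arrays of the widest beta-actin gap (0.0511).

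In the fit without the replicate block, 29 of the 46 genes were called in at least 1 of the 12 comparisons with untreated cells. The other 17 were called in none. The like share of all genes was not counted, so these counts are not shown to be particular to the matrix genes. In those 17 the differences lay between -0.30 and 0.42, and 9 of them had every group mean below the median. With the block FN1, COL6A1 and TIMP1, which are among the 17, were called with budesonide at 18 h. The 17 include 3 chains of type VI collagen, 5 of the 9 metalloproteinases and 2 of the 3 TIMPs. The effect of a treatment differed between the times, by limma's moderated F test, in 16 of the 46 genes for budesonide, a share of 34.8% beside 12.7% of all genes. It was 3 of 46 for formoterol, 6.52% beside 4.51%, and 19 of 46 for the combination, 41.3% beside 22.6%.

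With the mean of a gene's probe sets in place of 1, further calls against untreated cells ended. With budesonide these were THBS1 at 1 h (adjusted p = 0.711) and 6 h (0.0534), COL3A1, FBN1, LAMC1 and LOXL2 at 6 h (0.183, 0.45, 0.105 and 0.0844), and COL1A2 and MMP2 at 18 h (0.205 and 0.106). With the combination they were THBS1 at 1 h (0.0518), COL5A1, HAS3 and LOXL2 at 6 h (0.0846, 0.163 and 0.133), and COL3A1, COL4A1, COL5A1, COL5A2 and MMP2 at 18 h (0.109, 0.053, 0.128, 0.0685 and 0.334). The formoterol call of ADAMTS1 at 18 h ended too (0.116). Between the combination and budesonide the calls of COL5A2 and COL13A1 at 18 h (0.147 and 0.0863), ADAMTS1 at 2 and 6 h (0.391 and 0.0608), and COL5A2, LAMB1 and THBS2 at 6 h (0.214, 0.735 and 0.18) ended. Without the arrays of the widest beta-actin gap, budesonide calls ended for THBS1 at 1 h (0.163), COL3A1, FBN1 and LOX at 6 h (0.159, 0.0674 and 0.135) and COL12A1, COL1A2 and MMP2 at 18 h (0.0582, 0.0689 and 0.15). Combination calls ended for HAS2 at 1 h (0.0522), THBS1 at 2 h (0.081), HAS3 at 6 h (0.13) and COL3A1, MMP2 and VCAN at 18 h (0.191, 0.125 and 0.0709).

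Of 150 calls over all comparisons but the departures from additivity, 147 concerned genes with several probe sets, and in 127 of these all probe sets of the gene went the same way. Promoters of 28 of the 46 genes matched the RefSeq table. The glucocorticoid response element consensus, searched on both strands, was in 0 of these 28 and in 0.33% of all promoters. The AP-1 element TGANTCA was in 2 of the 28, MMP10 and POSTN, and in 6.6% of all. GGGCGG was in 20 of the 28, or 71.4%, and in 42.3% of all. TATAAA was in 6 of the 28, or 21.4%, and in 11.1% of all.

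Of 216 other genes of matrix making, binding and turnover on a wider list, also chosen with earlier results known, 206 were measured. With budesonide 72 of 206 were called at 18 h, 30 higher and 42 lower, a share of 35% beside 18.3% of all genes; their median difference was 0.03. With the combination 77 were called, 34 higher and 43 lower, a share of 37.4% beside 21%. With formoterol 6 were called at 18 h, a share of 2.91% beside 1.11%. ADAM12, a metalloproteinase that sheds growth factors, fell by 2.82 (SE 0.13) with budesonide at 18 h, and CD44, the main hyaluronan receptor, by 1.30 (SE 0.10). LTBP1, which stores latent TGF-beta in the matrix, rose by 3.12 (SE 0.15) with the combination at 18 h, EFEMP1, a fibulin, by 1.60 (SE 0.12), and NID2, a basement membrane linker, by 1.66 (SE 0.19).

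In the plasmin system PLAU, the urokinase activator, fell by 1.54 (SE 0.11) with budesonide at 18 h, and the inhibitor SERPINE2 fell by 1.69 (SE 0.08). BMP1, which trims procollagen, rose by 1.18 (SE 0.12) with the combination, and CREB3L1, a transcription factor for collagen genes, fell by 1.42 (SE 0.16). Of the integrins ITGA1, the alpha chain of a collagen receptor, rose by 1.56 (SE 0.16) with budesonide, and ITGA3, the alpha chain of a laminin receptor, fell by 0.98 (SE 0.12).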

How the data were processed

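Total RNA of 64 samples was hybridised to Affymetrix arrays. The deposited series table holds log2 expression values that the authors made with RMA, per the submitters' processing notes; the version, and whether all arrays were normalized together, are not given in the sources used here. Of 49395 probe sets, 44994 had 1 gene symbol in the platform annotation (updated through RefSeq), 1832 several and 2569 none. The probe set of highest mean was kept for each of 18132 genes. limma 3.58.1 in R 4.3.3 fitted 16 group means to all arrays with an intensity trend (48 residual degrees of freedom) and 27 two-sided contrasts, each adjusted by Benjamini-Hochberg; the script was tested on simulated data. Folds are computed from these log2 differences.

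Members and lists were chosen with earlier results of these data known. Genes shown with every array passed adjusted p 0.05, at least 2-fold and reached the table's median in a group, in 1 comparison (11 genes); further members were added after their values were seen. Other matrix genes were limited to the 2 highest and 2 lowest calls of a list. Replicate numbers come from the sample titles. Same-numbered arrays deviated together, every pair's correlation above 0.1, in 11 of 20 comparisons of groups at 1 time; there the replicate block (a term for each number at each time) is given where it changed a call. Alternatives were the block, rescaling, a filter on dim genes, no trend, the mean of a gene's probe sets, only the arrays compared, and leaving out each array. The number of arrays limits the precision.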

Additional observations from a re-analysis of the deposited data

Results flagged for a closer look

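In 15 of 176 groups of 4 arrays tested for the 11 genes shown in depth, 1 array stood far from the other 3 by Dixon's criterion, which chance meets in about 5% of groups. ADAMTS5 was low in replicate 2 in untreated cells at 2 h (9.78, the others from 10.20 to 10.28) and in the combination at 1, 2 and 6 h (9.64, 7.79 and 8.15). ADAMTS1 was high in replicate 3 in untreated cells at 1 h (10.98, the others 10.66 to 10.68) and with budesonide at 2 h (9.50). TNC was low in replicate 4 with budesonide at 1 h (8.07) and 2 h (8.10), and VCAN in replicate 4 with formoterol at 2 h (6.36). LOXL1 was high in untreated replicate 3 at 2 h (9.33) and low in budesonide replicate 3 at 18 h (6.53). COL3A1 was low in formoterol replicate 2 at 18 h (5.28, the others 6.33 to 6.52). VCAN was high in budesonide replicate 1 at 6 h (6.59). HAS3 was low in untreated replicate 2 at 2 h (4.05) and in combination replicate 4 at 6 h (4.16).

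Among the 11 genes shown in depth, 20 pairs of gene and treatment were flagged for a change of effect over time. Each passed limma's moderated F test of a difference between the 4 times, adjusted over all genes. Their effects spanned at least 1 on the log2 scale. These genes were picked for a change of at least 2-fold, which makes a wide span likely in advance. The F test alone was passed by 12.7% of all genes for budesonide, 4.51% for formoterol and 22.6% for the combination. With budesonide the span from the lowest to the highest effect was 2.67 for THBS2, 2.22 for COL13A1, 1.99 for HAS3, 1.63 for TNC, 1.62 for LOXL1, 1.61 for ADAMTS5, 1.52 for LOXL2, 1.40 for COL8A1, 1.16 for COL3A1 and 1.04 for VCAN (adjusted p at most 0.0176). With formoterol it was 1.24 for HAS3 (adjusted p = 0.0257). With the combination it was 3.99 for HAS3, 2.83 for COL13A1, 2.65 for THBS2, 1.65 for LOXL2, 1.60 for LOXL1, 1.56 for ADAMTS1, 1.45 for ADAMTS5, 1.44 for TNC and 1.18 for COL8A1 (adjusted p at most 0.00278).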

How the results depend on the processing

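Of 240 counts of members called under alternatives, 199 stayed within 1.5 times the reported count. Except for the block within each time, no share of all genes is set beside these counts. They show only how the member counts moved. Of 155 named calls 98 were kept under every alternative that tested the gene. Calls of genes dropped by the filter on dim genes, such as HAS2, were not counted as lost. Taking the mean of all probe sets ended 42 calls and leaving out 1 array 34. Leaving out the arrays of the widest beta-actin gap (chosen after seeing the data) ended 25. No call changed direction.

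With the replicate number as a block over all times, and as a block within each time, the counts were 2 and 3 for formoterol at 1 h, 4 and 6 at 2 h, 7 and 10 at 6 h and 6 and 9 at 18 h (MMP1 adjusted p = 2.35e-09 there). For the combination against budesonide they were 10 and 12 at 6 h and 4 and 4 at 18 h, and for the interaction at 18 h 3 and 7. Untreated cells at 18 h gave 5 with the block over all times. Only the block within each time moved the combination against formoterol at 1 h (4), the interaction at 1 h (2) and 6 h (4), and the combination at 6 h (17). ADAMTS5 with budesonide at 1 h was called with both blocks (adjusted p = 0.00461 and 2.59e-05). Of all genes the block within each time called 10.5% for formoterol at 6 h, 5.32% for formoterol at 18 h, 26.8% for the combination at 6 h, and 0.397%, 2.36% and 1.87% for the interaction at 1, 6 and 18 h. In 9 comparisons some pair's correlation was 0.1 or less, so pairing by number is uncertain there. Some genes ranked a replicate alike in every group: TNC was lowest and LOX highest in replicate 4 in 16 of 16. Others did not: LOXL4 was highest in replicate 2 in 5 of 16.

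The mean of all probe sets gave 1 for budesonide at 1 h, 1 for the interaction at 2 h, 2 and 0 for the combination against budesonide at 6 and 18 h, and 0 for untreated cells at 18 h. Without the arrays of the widest beta-actin gap the counts were 1 for the combination against formoterol at 1 h, 0 and 1 for the interaction at 1 and 6 h, 0 for formoterol at 18 h, 1 for the combination against budesonide at 18 h and 1 for untreated cells at 18 h. Centring on array medians gave 0 for the interaction at 1 h and for formoterol at 18 h. Repeated quantile normalization gave 2 for formoterol at 2 h and 0 at 18 h. Leaving out dim genes, which kept 10998 genes and 35 members, gave 2 for formoterol at 2 h and 1 for the interaction at 2 h. No intensity trend gave 0 for formoterol and 1 for untreated cells at 18 h. Only the arrays compared gave 2 for formoterol at 2 h, 1 for the interaction at 18 h and 1 for untreated cells at 18 h. The cause of these moves was not tested.

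Leaving out 1 array gave, at 1, 2, 6 and 18 h in turn, 2 to 3, 4 to 4, 10 to 15 and 19 to 23 with budesonide, 0 to 0, 1 to 2, 1 to 3 and 0 to 2 with formoterol, and 1 to 3, 4 to 5, 10 to 12 and 21 to 24 with the combination. For the combination against budesonide it gave 2 to 3, 3 to 3, 2 to 6 and 1 to 2, against formoterol 2 to 2, 4 to 5, 11 to 13 and 23 to 25, and for the interaction 0 to 1, 2 to 3, 1 to 2 and 0 to 0. Untreated cells gave 0 to 0 at 2 and 6 h and 0 to 2 at 18 h.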
